A study of Homo sapiens with 18 samples.

Results

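MEC2 is a human cell line derived from chronic lymphocytic leukemia (CLL), a cancer of mature B cells, and it carries Epstein-Barr virus (EBV) and mutated IGHV genes. Its response to CpG was read from 6 of the 18 libraries of the series, 3 from MEC2 cells stimulated with 2.5 μg/ml CpG-ODN2006 for 4 h and 3 from unstimulated MEC2 cells, the other 12 libraries being those of the CLL lines HG3 and PCL12. Each replicate number held 1 stimulated and 1 unstimulated sample, and the 3 pairs below rest on these numbers. In the values, CpG replicates 1 and 2 correlated more with the unstimulated sample of the other number (0.496 and 0.413, after removal of the group means) than with that of their own (0.25 and 0.0202), whereas replicate 3 correlated best with its own (0.663). Whether the numbers 1 and 2 are crossed in the labels was not tested, and the ratios of pairs 1 and 2, the counts of genes in the same direction in all pairs and the paired fits depend on them. Of the 56609 gene symbols counted, 33556 had at least 1 read in MEC2, and the 13449 whose mean over the 6 libraries reached 1 CPM (reads scaled to the size of the library) were compared. The unstimulated samples are described by the absence of CpG only, and a culture that received a control oligonucleotide is not named. Since the samples come from 1 established line, and the sources do not say whether the replicates were separate thaws or cultures, P values measure the spread between these samples.

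ODN-2006 is a short synthetic DNA whose unmethylated CpG motifs are sensed by TLR9, a receptor of the endosome of B cells. TLR9 signals through the adaptor MYD88, IRAK kinases and TRAF6 to the IκB kinase, which frees NF-κB dimers to enter the nucleus, and to MAP kinases. NF-κB then switches on activation genes, survival genes and, within hours, its own inhibitors, so that a 4 h sample of a responding B cell is known to hold both the response and its brakes.

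The 3 CpG libraries held 33607957, 43683251 and 20382943 counts (replicates 1, 2 and 3) and the unstimulated libraries 34766902, 23586794 and 35101314. CpG replicate 2 stood apart, with 19.7% of its counts on mitochondrially encoded genes against 4.73% to 7.44% in the other 5 libraries. Its pair is therefore also given apart where a gene group moved with it. The B-cell markers were all present, with a summed level of 3412 to 4287 CPM in the CpG and 3294 to 4063 CPM in the unstimulated libraries. Of 7 markers of CLL, 4 were under a mean of 1 CPM, among them CD5, ROR1 and FMOD, which did not exceed 0.412 CPM in any library. Of 10 T-cell markers 7 were under a mean of 1 CPM, with no read of CD3D in any MEC2 library, but TRAC was at 35.8 to 75.5, TRBC2 at 30.6 to 53.9 and LCK at 70.3 to 105 CPM, and the list summed to 139 to 203 CPM with CpG and 164 to 226 CPM without. The NK-cell markers, PRF1 foremost, summed to 40.9 to 121 and 37.8 to 135 CPM, the plasma-cell markers to 1389 to 1700 and 1450 to 1830 CPM, and the monocyte and macrophage markers to no more than 3.96 CPM. The summed levels of these lists overlapped between the groups.

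Against the spread between pairs, no gene passed an adjusted p of 0.05 in the paired test (edgeR's quasi-likelihood test with the replicate number as a block, 2 residual degrees of freedom, Benjamini-Hochberg over 13449 genes). At a nominal P under 0.05 the same test gave 285 genes that were higher with CpG (2.12% of those tested) and 132 that were lower (0.981%). DESeq2, fitted with the same block, placed 42 genes higher (0.312%) and 2 lower (0.0149%) at an adjusted p under 0.05, and limma-voom placed none, with 300 higher (2.23%) and 146 lower (1.09%) at a nominal P under 0.05. With the pair of replicate 2 left out, 145 genes higher and 29 lower passed an adjusted p of 0.05 in edgeR, while 7 and 3 passed once replicate 1 was dropped and 15 and 1 once replicate 3 was, each time with 2 pairs. Differentially expressed genes (DEGs) as the study defines them, with a nominal P under 0.01 and an absolute log2 fold change (Log2FC) of at least 1, were 32 higher (0.238%) and 7 lower (0.052%). This definition does not correct for the number of genes, so that DEG is used below as a description and not as a call, and the DESeq2 calls were not shared by the paired edgeR and limma-voom fits. Each Log2FC below is given with its standard error (SE) from the paired edgeR test. Unless said otherwise, a MEC2 gene given with it had a nominal P under 0.05 in that test, and the adjusted p values of such genes in edgeR were 0.376 to 0.966. In a fit that ignored the pairs, 196 of the 417 genes no longer had a nominal P under 0.05, and of the 39 DEGs these were CXCL8 and NR4A3. Counts of list members in all pairs stand against 12.4% higher and 11.8% lower among all genes, and those at a nominal P under 0.05 against 2.12% and 0.981%. The lists were drawn up with earlier results of these data known, so that such counts are a description and no independent support.

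In all 3 pairs 1671 genes were higher (12.4% of those tested) and 1592 were lower (11.8%). Directions drawn at random would give shares of about this size, so that these counts alone do not show a response to CpG. At least 1.5-fold in every pair, 78 genes were higher (0.58%) and 43 lower (0.32%). A mean level of at least 10 CPM was reached by 31 of the 78 and by 3 of the 43, against 9082 of the 13449 genes tested. All 42 and both genes called by DESeq2 went the same way in the 3 pairs, as did all 39 DEGs. These genes were picked by fits of the same pairs, so that this agreement is no separate support. The samples of the 2 groups did not overlap for 426 genes in the higher direction (3.17%) and for 357 in the lower (2.65%). The 32 higher DEGs were unequal among the pairs, with median log2 ratios of 1.48, 1.63 and 0.81 in pairs 1, 2 and 3. In 27 of the 32 the third pair gave the smallest ratio, and it gave the smallest in absolute size in 6206 of the 13449 genes tested.

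**Figure D1:**
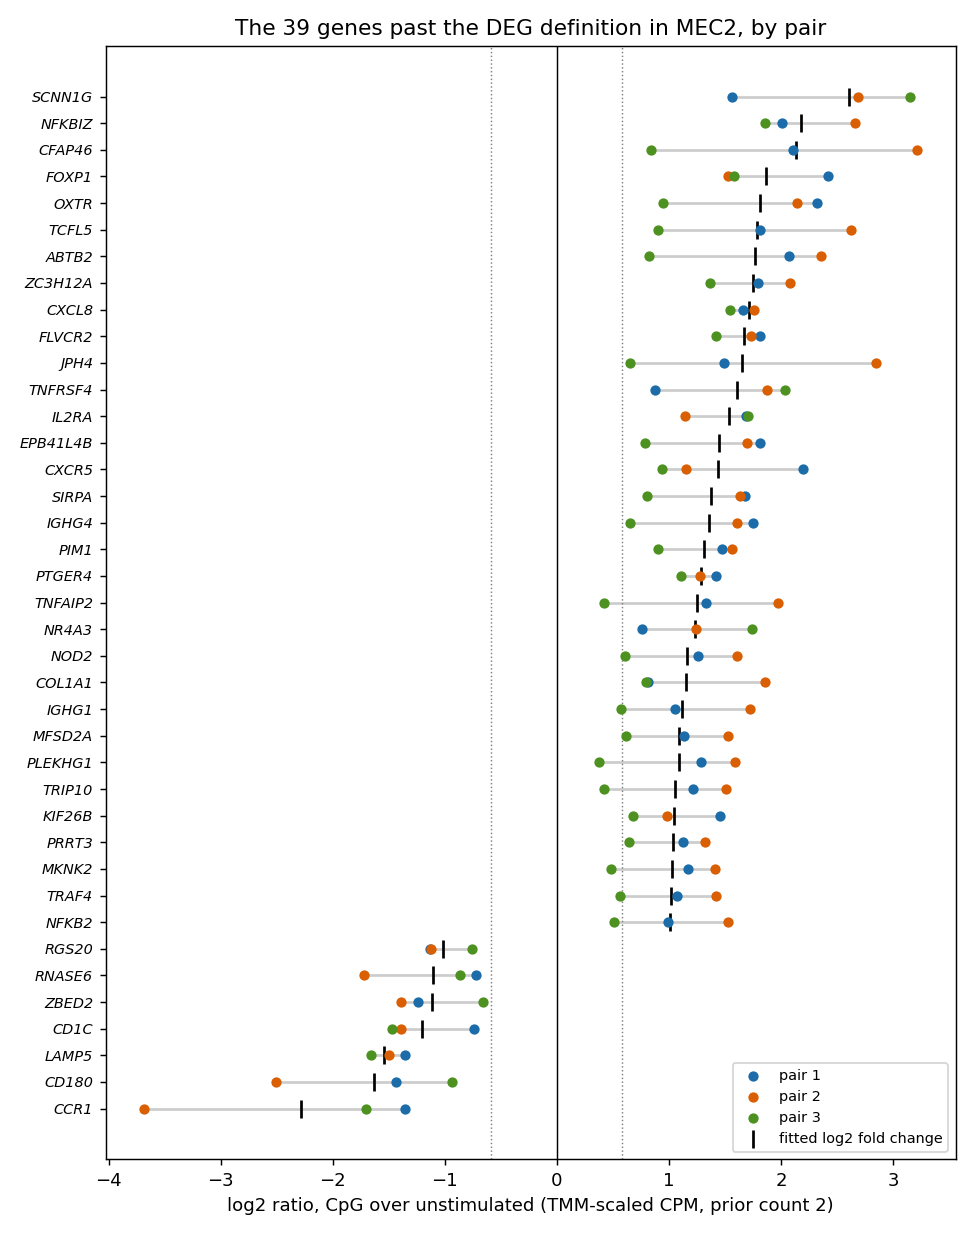
Log2 ratios of CpG over unstimulated MEC2 cells in each of the 3 pairs (dots) and the fitted Log2FC (bars) for the 39 genes past the DEG definition, on a horizontal axis in log2 units with dotted lines at 1.5-fold. All dots lie on 1 side of 0 for every gene, and in 27 of the 32 genes on the right the dot of pair 3 is the innermost.

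NFKBIZ had the smallest P of all genes. It encodes IκBζ, a nuclear protein that joins NF-κB on DNA and directs the secondary wave of its target genes, and it lies on chromosome 3 (GRCh38 101827991-101861022, plus strand, GENCODE 44). NFKBIZ stood at 144, 156 and 89.3 CPM in CpG replicates 1, 2 and 3 and at 35.6, 24.5 and 24.6 CPM in the unstimulated samples of the same numbers. The groups were well separated, and the lowest CpG sample was above the highest unstimulated one. Its Log2FC was 2.18 ± 0.21 (adjusted p = 0.376 with edgeR and 2.07e-15 with DESeq2).

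ZC3H12A was next. It encodes Regnase-1, an endonuclease that degrades mRNAs of inflammatory genes, and it lies on chromosome 1 (GRCh38 37474580-37484377, plus strand). Its level was 209, 209 and 92.4 CPM with CpG and 60.1, 49.3 and 35.7 CPM without. Every CpG sample exceeded every unstimulated one, and the Log2FC was 1.75 ± 0.19 (adjusted p = 0.394 with edgeR and 1.53e-10 with DESeq2).

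**Figure D2:**
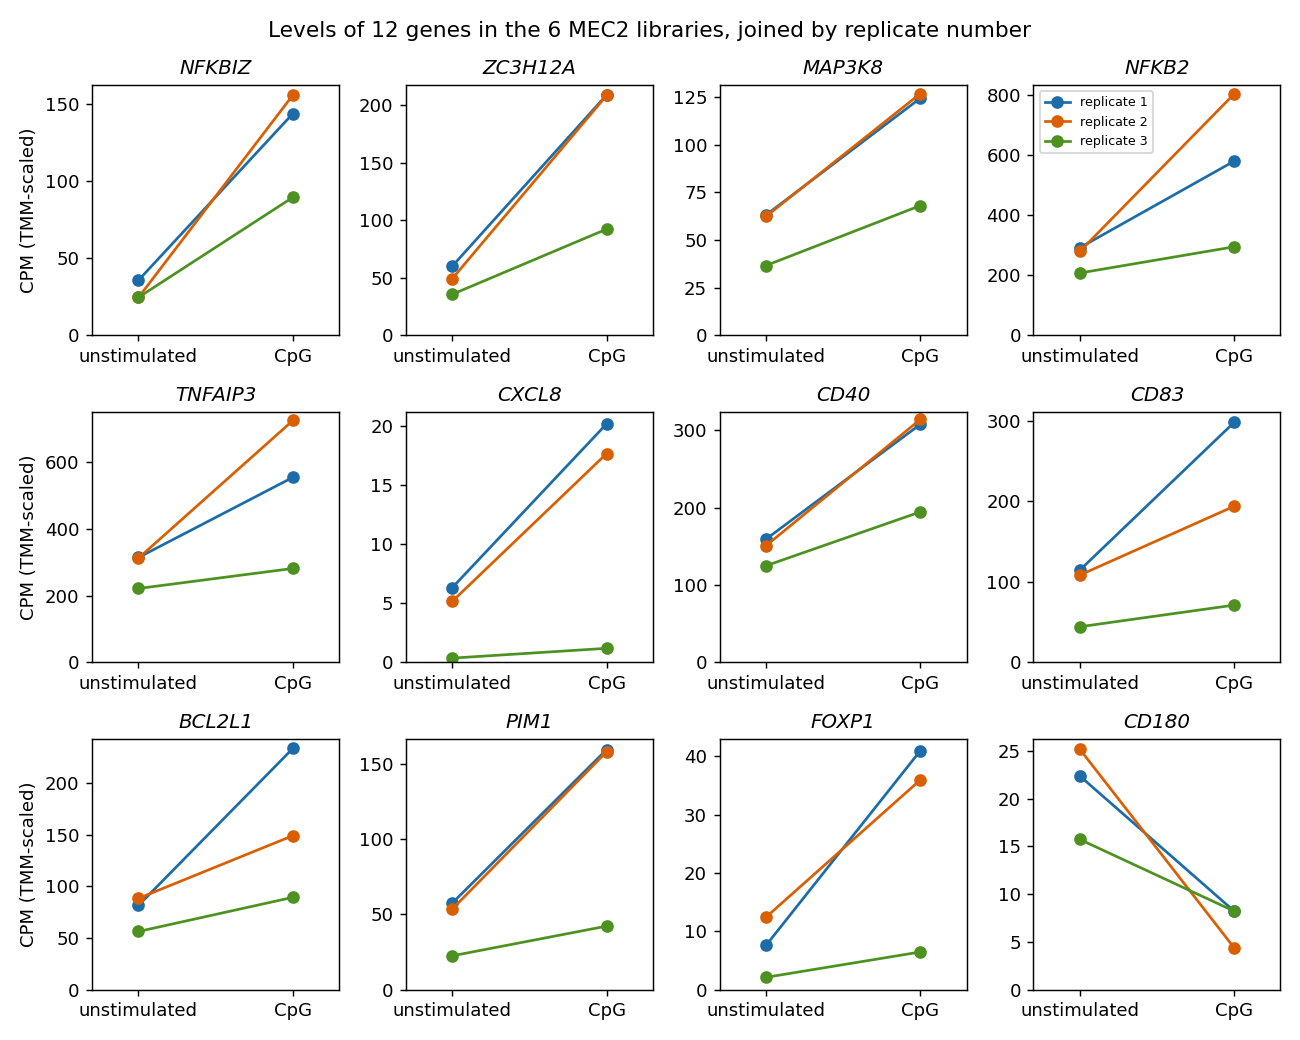
Levels of 12 genes in CPM (vertical axes, each starting at 0) in the 6 MEC2 libraries, with a line joining the unstimulated and the CpG sample of each replicate number. Every line has its CpG end above its unstimulated end for the first 11 genes and below it for CD180, and the lines of replicate 3 lie lowest in most panels, as for CXCL8 at 0.371 and 1.20 CPM.

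The other inhibitors and nuclear IκB proteins went the same way in most cases. Of the 10 genes of this list, 6 were higher in all 3 pairs (12.4% of all genes), 1 was lower, and 6 had a nominal P under 0.05, all higher. The median Log2FC of the list was 0.48, against -0.01 over all genes tested, and its medians in pairs 1, 2 and 3 were 0.54, 0.49 and 0.20. BCL3, a nuclear IκB protein that works with p50 and p52, had a Log2FC of 0.91 ± 0.20, with 84.1, 71.9 and 34.6 CPM against 35, 37.6 and 24 CPM. NFKBIA, which encodes the classical inhibitor IκBα, reached 567, 432 and 284 CPM against 319, 308 and 199 CPM. In NFKBIA the groups overlapped, since replicate 3 was low with and without CpG, while each pair was higher with CpG (Log2FC 0.61 ± 0.19). NFKBID, another nuclear IκB protein, depended on 1 library, with 160.3, 364 and 59.5 CPM against 108, 92.8 and 47.6 CPM (Log2FC 0.95 ± 0.33). NFKBIE and NFKBIB, inhibitors that hold NF-κB in the cytoplasm, had Log2FC values of 0.57 ± 0.18 and 0.40 ± 0.16. IKBIP, the 1 member lower in every pair, was at -0.30 ± 0.19 (nominal P above 0.05).

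Among the 13 tested regulators grouped around A20, the ubiquitin-editing enzyme that shuts down signalling to NF-κB, 6 were higher in all pairs (12.4% of all genes) and 3 were higher at a nominal P under 0.05 (2.12% of all genes). TNFAIP3, the gene of A20, was at 553, 722 and 281 CPM with CpG and at 314, 312 and 221 CPM without. The pair of replicate 3 gave the smallest ratio (log2 ratios 0.82, 1.21 and 0.35), and the Log2FC was 0.79 ± 0.23. CYLD, a deubiquitinase that opposes NF-κB, had a Log2FC of 0.51 ± 0.18, and TNIP2, a partner of A20, one of 0.42 ± 0.15.

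Of the 14 tested regulators of mRNA decay, 6 were higher and 2 lower in all pairs, beside 12.4% and 11.8% of all genes, so that the lower ones were near that share. Besides ZC3H12A, its relatives ZC3H12C (Log2FC 0.88 ± 0.19) and ZC3H12D (0.67 ± 0.23) were higher. ZC3H12C was at 124, 176 and 75.9 CPM against 75.2, 69.7 and 50.3 CPM, with no overlap of the groups. N4BP1, a related RNase that restrains NF-κB, was slightly lower in each pair (-0.28 ± 0.16, nominal P above 0.05).

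The list of NF-κB subunits holds 5 genes. RELB, REL, NFKB2 and NFKB1 were higher in all 3 pairs with nominal P values under 0.05, and RELA, the fifth, was higher only in pairs 1 and 3. The list median was 0.84, with 0.85, 0.71 and 0.51 in the pairs. NFKB2, the precursor of p52 of the non-canonical pathway, was at 580.5, 804 and 295 CPM against 292, 279.5 and 208 CPM (Log2FC 1.01 ± 0.25) and was the 1 subunit that met the DEG definition. RELB, the partner of p52, had 244, 188 and 74.8 CPM against 108, 114 and 48.2 CPM. Its groups overlapped, but each pair was higher by at least 1.5-fold (log2 ratios 1.17, 0.71 and 0.63, Log2FC 0.84 ± 0.17). REL, the subunit most tied to B-cell proliferation, was at 0.87 ± 0.18, and NFKB1 at 0.48 ± 0.20. DESeq2 called NFKB2, REL and RELB, with adjusted p values of 0.0122, 0.034 and 0.0492.

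Upstream of them, 3 of 14 kinases and scaffolds of the IKK level were higher in all pairs with a nominal P under 0.05. MAP3K8, the kinase TPL2 that links the IκB kinase to ERK, gave similar ratios in the 3 pairs. It was at 124, 127 and 68 CPM with CpG against 63.1, 62.4 and 36.6 CPM without, and its pair log2 ratios were 0.98, 1.02 and 0.89 (Log2FC 0.97 ± 0.15, DESeq2 adjusted p = 0.00552). IKBKE, an IKK-related kinase, had a Log2FC of 0.85 ± 0.28, with the highest level in CpG replicate 2 (51, 86.1 and 56 CPM against 32.2, 27.5 and 46.7 CPM). TANK, an adaptor of those kinases, was at 0.36 ± 0.15, and MAP3K14, the kinase NIK, at -0.14 ± 0.15 (nominal P above 0.05).

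The stretches before the transcription starts of several of these genes are printed because their letters bear on a set of genes that were higher together. They are the 250 bases before the first listed start of each gene in RefSeq (GRCh38.p14), 5′ to 3′ on the strand of the gene, with matches to the κB consensus, the binding motif of NF-κB, in capitals. NFKBIZ, MAP3K8, REL, NFKBIA and TNFAIP3 hold matches and ZC3H12A holds none.
NFKBIZ, chr3:101827740-101827989, plus strand: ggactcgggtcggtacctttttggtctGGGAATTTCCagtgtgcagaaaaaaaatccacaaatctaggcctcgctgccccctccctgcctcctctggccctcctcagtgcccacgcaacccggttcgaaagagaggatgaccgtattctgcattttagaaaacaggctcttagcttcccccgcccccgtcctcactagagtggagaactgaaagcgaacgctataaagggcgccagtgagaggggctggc
MAP3K8, chr10:30433771-30434020, plus strand: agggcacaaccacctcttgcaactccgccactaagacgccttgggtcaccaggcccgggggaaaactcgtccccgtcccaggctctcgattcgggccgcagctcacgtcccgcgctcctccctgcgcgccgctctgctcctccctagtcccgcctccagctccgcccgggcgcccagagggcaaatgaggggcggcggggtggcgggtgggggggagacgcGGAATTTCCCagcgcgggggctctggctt
REL, chr2:60881324-60881573, plus strand: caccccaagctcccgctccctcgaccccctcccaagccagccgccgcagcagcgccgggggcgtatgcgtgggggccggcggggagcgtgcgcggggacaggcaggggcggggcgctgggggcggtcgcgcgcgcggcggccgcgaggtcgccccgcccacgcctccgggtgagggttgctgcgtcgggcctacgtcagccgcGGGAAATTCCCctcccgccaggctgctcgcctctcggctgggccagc
NFKBIA, chr14:35404750-35404999, minus strand: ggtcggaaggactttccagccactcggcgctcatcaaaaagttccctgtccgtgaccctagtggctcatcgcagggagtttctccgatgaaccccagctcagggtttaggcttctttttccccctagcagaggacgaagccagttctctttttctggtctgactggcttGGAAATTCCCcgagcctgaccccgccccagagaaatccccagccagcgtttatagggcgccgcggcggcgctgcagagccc
TNFAIP3, chr6:137867009-137867258, plus strand: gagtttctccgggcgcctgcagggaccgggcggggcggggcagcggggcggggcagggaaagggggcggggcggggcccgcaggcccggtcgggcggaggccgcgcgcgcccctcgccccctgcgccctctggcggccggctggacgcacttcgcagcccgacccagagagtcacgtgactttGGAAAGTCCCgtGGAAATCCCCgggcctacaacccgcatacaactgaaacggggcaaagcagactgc
ZC3H12A, chr1:37474330-37474579, plus strand: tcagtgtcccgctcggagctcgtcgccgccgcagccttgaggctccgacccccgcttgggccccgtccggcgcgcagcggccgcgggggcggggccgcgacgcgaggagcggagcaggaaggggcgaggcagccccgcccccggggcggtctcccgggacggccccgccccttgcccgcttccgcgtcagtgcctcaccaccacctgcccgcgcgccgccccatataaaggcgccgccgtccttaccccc

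Both strands were searched, and overlapping matches were each kept, as in REL, where 2 matches share 9 letters. Over the whole table, which covers 250 bases before to 50 after each start, 11.3% of 35116 windows held the consensus, and 13.4% of the 13638 windows of genes tested did. Among the 78 genes that were higher by at least 1.5-fold in every pair, 48 had a window, and 25.7% of their 74 windows held the consensus. The 43 lower genes, 26 of them with a window, held the consensus in 9.38% of 32 windows. A match describes letters only, and windows of CXCL8 and PIM1, both higher, held none.

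The receptor and its own pathway showed small differences. TLR9 itself had 4, 6 and 0 reads in the CpG and none in the unstimulated libraries, where a count of 0 allows up to 0.0855 to 0.127 CPM (3 reads), and it was too low to be tested. Of 19 tested genes of the TLR9 pathway, 3 were higher and 1 lower in all pairs, against 12.4% and 11.8% of all genes, and the list median was -0.04. IRAK3, an inactive kinase that brakes TLR signalling, was at 35.1, 50.9 and 43 CPM against 22.9, 23.6 and 32.8 CPM without overlap (Log2FC 0.70 ± 0.20). TRAF3, which restrains the non-canonical pathway, was at 328, 377 and 247 CPM against 231, 207 and 198 CPM, also without overlap (0.56 ± 0.19).

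Of the 9 TRAF adaptors and cIAP ligases, which carry signals of TNF receptors, 5 were higher in all pairs (12.4% of all genes), none was lower, and 4 had a nominal P under 0.05. TRAF1, an NF-κB target that prolongs CD40 and TNF receptor signals, was at 814, 854 and 461 CPM against 374, 352 and 321 CPM. The groups did not overlap in TRAF1 (Log2FC 0.98 ± 0.24, DESeq2 adjusted p = 0.00835). TRAF4 met the DEG definition with 440.1, 499.6 and 232 CPM against 209.8, 187 and 157 CPM (Log2FC 1.02 ± 0.22). BIRC3, the ligase cIAP2, was highest in CpG replicate 2 (521, 798 and 402 CPM against 363, 273 and 334 CPM), with a Log2FC of 0.77 ± 0.29.

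Receptors and surface proteins of B-cell activation, also among the longer lists, were the list with the most members past a nominal P of 0.05. Of 37 tested, 20 were higher and 3 lower in all pairs, and 16 were higher and 1 lower at a nominal P under 0.05, beside 2.12% and 0.981% of all genes. The median Log2FC was 0.42, with 0.38, 0.31 and 0.20 in the 3 pairs. CD40, the receptor through which T cells activate B cells, was at 308, 314 and 194 CPM against 159, 151 and 125 CPM. No CpG sample reached down to the unstimulated range (Log2FC 0.88 ± 0.17, DESeq2 adjusted p = 0.0144). CD83, a maturation marker, was at 298, 194 and 71.2 CPM against 115, 108 and 44.4 CPM. Here the groups overlapped because both samples of replicate 3 were low, while the pairs gave log2 ratios of 1.38, 0.84 and 0.68 (Log2FC 0.97 ± 0.19). CD80, the costimulatory ligand of CD28, had a Log2FC of 0.96 ± 0.22 and ICAM1, the adhesion ligand of LFA-1, one of 0.92 ± 0.20. For ICAM1 the samples were at 755, 615 and 406 CPM with CpG and 330.4, 344 and 243 CPM without.

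CXCR5, the homing receptor for B-cell follicles, met the DEG definition. It was at 53.9, 34.3 and 12 CPM against 11.7, 15.4 and 6.23 CPM, so that the CpG sample of replicate 3 lay within the unstimulated range, while the pair ratios were all higher (log2 ratios 2.20, 1.15 and 0.94, Log2FC 1.44 ± 0.29). IL2RA, the α chain of the IL-2 receptor, also met it at a low level, with 7.48, 5.83 and 4.61 CPM against 2.28, 2.61 and 1.37 CPM (1.54 ± 0.35). TNFRSF4, the costimulatory receptor OX40, met it as well (1.61 ± 0.36). CCR7, which guides cells to lymph nodes, had a smaller difference (0.46 ± 0.17). Also higher at a nominal P under 0.05 were CD44 (0.68 ± 0.20), CD274, the ligand of PD-1 (0.81 ± 0.30), IL21R (0.53 ± 0.17), CD58 (0.50 ± 0.19) and SLAMF1 (0.42 ± 0.17). S1PR1, the receptor that draws lymphocytes out of lymphoid tissue, was the 1 lower member at that threshold. Its levels were 42.3, 37.5 and 54.8 CPM with CpG and 71.7, 68.6 and 66.2 CPM without, with no overlap (Log2FC -0.64 ± 0.18).

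Of 38 cytokines and chemokines, 27 were tested, and 9 were higher and 4 lower in all pairs (12.4% and 11.8% of all genes), 7 of them higher and none lower at a nominal P under 0.05. CXCL8, the neutrophil chemokine IL-8, gave nearly the same ratio at very different levels. It was at 20.2, 17.7 and 1.2 CPM with CpG against 6.34, 5.18 and 0.371 CPM without, so that CpG replicate 3 was below the unstimulated samples of replicates 1 and 2. Its pair log2 ratios were 1.66, 1.76 and 1.54 (Log2FC 1.71 ± 0.26, DESeq2 adjusted p = 0.00142), and in a fit that ignored the pairs its nominal P was above 0.05. TNF was at 139, 166 and 71.8 CPM against 78.8, 67.8 and 56.3 CPM (Log2FC 0.82 ± 0.21), and its relative LTA, lymphotoxin α, at 139, 105 and 63.5 CPM against 66.5, 76 and 39.9 CPM (0.73 ± 0.18). EBI3, a subunit of IL-27 and IL-35 first found in EBV-carrying B cells, reached 147, 147 and 109 CPM against 80.6, 79.2 and 83.6 CPM without overlap (0.72 ± 0.17). CSF1, the growth factor of macrophages, was at 0.66 ± 0.15 and CCL22, a chemokine for CCR4-bearing T cells, at 0.72 ± 0.21. IL6 had 4, 6 and 0 reads with CpG and none without, too few for a test.

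Survival genes formed a smaller group. Of 16 members of the BCL2 family and related regulators, 8 were higher and 2 lower in all pairs (12.4% and 11.8% of all genes), and 4 were higher and 1 lower at a nominal P under 0.05 (2.12% and 0.981%). BCL2L1, which encodes the antiapoptotic BCL-XL, was at 234, 149 and 89.4 CPM against 81.6, 88.5 and 56.4 CPM. The groups were apart, and pair 1 gave the largest ratio (log2 ratios 1.52, 0.75 and 0.67, Log2FC 0.98 ± 0.21). CFLAR, the caspase-8 inhibitor c-FLIP, had a Log2FC of 0.75 ± 0.20 and BCL2A1, the NF-κB target BFL-1, one of 0.63 ± 0.18. PMAIP1, the proapoptotic NOXA, was also higher (0.59 ± 0.17). HRK, a proapoptotic BH3-only gene near 1 CPM, was lower in all pairs (0.971, 0.957 and 0 CPM against 3.31, 2.15 and 0.543 CPM).

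The PIM kinases, which promote survival downstream of cytokine receptors and NF-κB, were all higher in the 3 pairs. PIM1 met the DEG definition with 159, 158 and 42.2 CPM against 57.5, 53.5 and 22.5 CPM. CpG replicate 3 overlapped with the unstimulated samples of the other numbers, but not with its own partner (log2 ratios 1.47, 1.56 and 0.91, Log2FC 1.32 ± 0.19). PIM2 was at 0.85 ± 0.17 and PIM3 at 0.41 ± 0.16. In the list of 20 STAT, SOCS and related genes that holds them, 8 were higher and 2 lower in all pairs, the lower share being no larger than the 11.8% of all genes and the higher one standing beside 12.4%. STAT5A, a transducer of IL-2 family cytokines, had 136, 168 and 90.9 CPM against 77.5, 66.6 and 74.2 CPM (0.81 ± 0.22), and the feedback inhibitor SOCS3 was at 1.06 ± 0.40 with no more than 6.48 CPM in any library.

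Of 26 early response genes of the AP-1, EGR, NR4A and IER groups, 10 were higher and 3 lower in all pairs, the latter close to the 11.8% of all genes, and 6 and 1 had a nominal P under 0.05. BATF, an AP-1 factor needed for class switching, was at 243, 132 and 171 CPM against 83.9, 75.8 and 108 CPM with no overlap (Log2FC 1.00 ± 0.21, DESeq2 adjusted p = 0.0176). NR4A3, an immediate early nuclear receptor, met the DEG definition (1.24 ± 0.28) with 19, 21.3 and 4.36 CPM against 11.2, 8.99 and 1.26 CPM, and its nominal P was above 0.05 when the pairs were ignored. JUNB was at 0.52 ± 0.17. KLF2, a quiescence factor that keeps up S1PR1, was lower in each pair, with 35, 23 and 13.3 CPM against 54, 55.9 and 14.8 CPM (-0.70 ± 0.25).

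Transcription factors of B-cell identity gave 9 higher and 4 lower of 23 in all pairs, beside 12.4% and 11.8% of all genes. FOXP1, a factor that delays plasma cell differentiation, had the third smallest P of the DEGs. It was at 41, 36 and 6.46 CPM against 7.59, 12.4 and 2.12 CPM, and each pair was higher by more than 1.5-fold while the groups overlapped (log2 ratios 2.42, 1.53 and 1.58, Log2FC 1.87 ± 0.26, DESeq2 adjusted p = 2.54e-06). SPIB (0.68 ± 0.15) and IKZF1 (0.75 ± 0.19) were higher too. ID3, an inhibitor of E proteins, was lower in the 3 pairs, with 44.6, 18.6 and 31.8 CPM against 77.5, 75.3 and 39.2 CPM (-1.03 ± 0.33), and so was TBX21 (-0.40 ± 0.16).

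In the list of B-cell receptor signalling, 6 of 29 genes were higher and 9 lower in all pairs, where 12.4% and 11.8% of all genes were. PIK3CD, the catalytic subunit p110δ, was at 399.5, 493 and 347 CPM against 231, 198 and 247 CPM without overlap (Log2FC 0.87 ± 0.22). NFATC2, a calcium-driven factor, was at 0.56 ± 0.16. The inhibitory Fc receptor gene FCGR2B (-0.57 ± 0.20) and CD79B, a signalling chain of the receptor (-0.56 ± 0.22), were lower in every pair. The constant region genes IGHG1 (1.12 ± 0.25) and IGHG4 (1.35 ± 0.34) both met the DEG definition, but their sequences are so alike that the division of reads between them is uncertain.

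The genes that were lower in all pairs were led by CD180, which encodes RP105, a TLR-like receptor of B cells that modulates TLR signalling (chromosome 5, GRCh38 67179613-67196799, minus strand). It stood at 8.21, 4.38 and 8.21 CPM with CpG against 22.4, 25.2 and 15.7 CPM without. The groups were apart, and the Log2FC was -1.63 ± 0.34 (DESeq2 adjusted p = 0.00265). CCR1, a chemokine receptor, was at 1.77, 0.478 and 1.05 CPM against 4.62, 6.88 and 3.57 CPM, the other gene that DESeq2 called lower (-2.28 ± 0.60, DESeq2 adjusted p = 0.0239). Also past the DEG definition were CD1C, a lipid antigen-presenting molecule (-1.21 ± 0.32), RNASE6, an antimicrobial ribonuclease (-1.11 ± 0.30), LAMP5 (-1.54 ± 0.40), RGS20, a regulator of G-protein signalling (-1.01 ± 0.22), and ZBED2, a transcriptional repressor (-1.11 ± 0.26). Of these 7 genes, only ZBED2 had samples that overlapped between the groups. CD1D, a relative of CD1C, had 1, 8 and 0 reads with CpG and 34, 19 and 3 without, below the level that was tested.

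Several DEGs that were higher belong to no list above, and they were named after their values were seen. OXTR, the oxytocin receptor, was at 117, 105 and 80.5 CPM against 23.4, 23.7 and 41.7 CPM, a wide gap between the groups (Log2FC 1.81 ± 0.29, DESeq2 adjusted p = 9.56e-07). SIRPA, the receptor of CD47, was at 70.6, 79.1 and 45.2 CPM against 22, 25.4 and 25.9 CPM (1.38 ± 0.23). NOD2, an intracellular sensor of bacterial peptidoglycan, was at 28.9, 38.5 and 19.6 CPM against 12.1, 12.6 and 12.8 CPM, and the unstimulated samples differed little (1.16 ± 0.25). PTGER4, a receptor of prostaglandin E2, was at 1.28 ± 0.27, TNFAIP2, a TNF-induced gene, at 1.25 ± 0.30, and the lipid transporter gene MFSD2A at 1.09 ± 0.21. MKNK2, a kinase that phosphorylates the translation factor eIF4E, was at 1378, 1698 and 565 CPM against 611, 638 and 405 CPM (1.02 ± 0.28). The remaining ones were ABTB2, FLVCR2, a haem transporter-like gene, TCFL5, EPB41L4B, KIF26B, PRRT3, TRIP10, JPH4, CFAP46, COL1A1, SCNN1G and PLEKHG1, with Log2FC values from 1.03 for PRRT3 to 2.61 for SCNN1G. MIR3142HG, the host gene of miR-146a, a microRNA that restrains TLR signalling, was called by DESeq2 (adjusted p = 0.0321) with 117, 276 and 63 CPM against 70.0, 59 and 42.5 CPM, and its largest value was that of CpG replicate 2.

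In other programmes of B-cell stimulation few members passed a nominal P of 0.05 at 4 h. Of 10 genes of the MYC network none was higher and 1 was lower in all pairs, with a list median of -0.02. None of the 38 genes of ribosome biogenesis had a nominal P under 0.05, although 15 were higher in all pairs and 35 in pairs 1 and 3, where 28.1% of all genes were, and the list medians of the pairs were 0.22, -0.11 and 0.10. Among 9 interferon regulatory factors, 3 were higher in all pairs, with IRF5 at 159, 236 and 119 CPM against 109, 105 and 101 CPM (0.65 ± 0.21). Of 32 interferon-stimulated genes, 2 were higher and 14 lower in all pairs, and 1 had a nominal P under 0.05. This was IFIT1, an antiviral RNA-binding protein, with 7.8, 3.11 and 11.4 CPM against 10.4, 9.45 and 20.9 CPM (-0.96 ± 0.30). CIITA, the master switch of MHC class II, was at 254, 540.3 and 259.8 CPM against 162, 159 and 205 CPM (0.91 ± 0.30). Of the 16 genes of its list 2 were higher in all pairs, near the 12.4% of all genes, and the list median was -0.21.

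Several of these medians moved with CpG replicate 2, the library rich in mitochondrial reads. The list of nuclear-encoded respiratory chain genes had medians of 0.05, -0.92 and -0.00 in pairs 1, 2 and 3, the glycolysis and hypoxia list 0.08, -0.72 and 0.03, the mitosis list -0.09, -0.60 and 0.00, the interferon-stimulated list -0.12, -0.63 and -0.11 and the MHC class II list 0.06, -0.56 and -0.03. The 15 mitochondrially encoded genes went the other way in that pair, with -0.42, 1.48 and -0.19. In each of the 5 nuclear lists the shift was largest in pair 2, and what the mitochondrial share of that library contributed was not tested. In pairs 1 and 3 alone, a count added after the data were seen, 5 of 5 NF-κB subunits, 7 of 10 inhibitors, 24 of 37 surface genes and 17 of 27 cytokines were higher in both, where 28.1% of all genes were. So were 35 of 38 genes of ribosome biogenesis, 12 of 17 heat shock chaperones, 13 of 24 genes of the unfolded protein and stress response, 10 of 20 of MHC class I presentation and 3 of 36 mitosis genes.

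Several single genes also rested on 1 pair. Without pair 2, the Log2FC moved by more than 1.5 times to 0.38 for CD274, 0.45 for NFKBID, 0.40 for BIRC3, 0.46 for IKBKE, 0.29 for CD58, 0.50 for CIITA, 0.39 for IRF5, 0.66 for MIR3142HG and 1.08 for JPH4. The lower genes ID3, KLF2 and CD79B moved to -0.56, -0.42 and -0.28. Without pair 1, NFKB1 moved to 0.29 and CCR7 to 0.28.

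**Figure D3:**
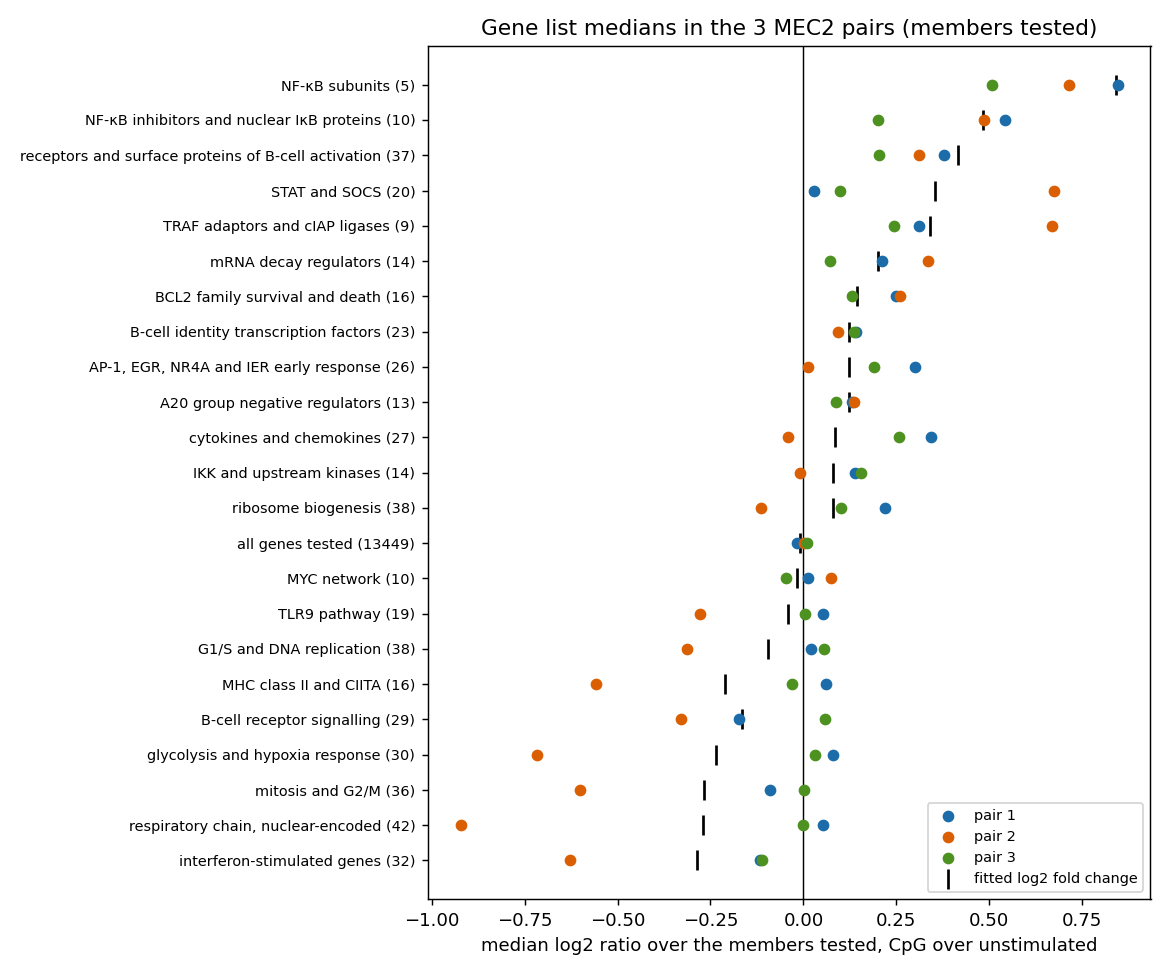
Median log2 ratio of CpG over unstimulated MEC2 cells in each pair (dots) and median fitted Log2FC (bars) for 22 gene lists and for all genes tested, in log2 units, with the number of members tested in brackets. The NF-κB subunits lie at 0.85, 0.71 and 0.51 in pairs 1, 2 and 3, and the respiratory chain list lies near 0 in pairs 1 and 3 and at -0.92 in pair 2.

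The question whether the MEC2 response differed from that of the other lines was asked with the interaction of line and treatment over all 18 libraries. No gene passed an adjusted p of 0.05 for MEC2 minus HG3 or for MEC2 minus PCL12 (edgeR with the replicate block). At a nominal P under 0.05, 236 genes had a higher effect in MEC2 than in HG3 (1.75%) and 176 a lower one (1.31%), and for PCL12 these were 48 (0.357%) and 29 (0.216%). In the PCL12 unstimulated and CpG libraries of replicates 2 and 3, the median level of 36 genes was 28.6% to 31.1% of that in MEC2. These genes were chosen because no MEC2 library had them under 20 CPM and PCL12 replicate 1 held them at 10% of that or less, its medians being 1.39% and 1.49%. Whether PCL12 replicates 2 and 3 held MEC2 transcripts, and what this contributed to the PCL12 values, was not tested. PCL12 pairs 2 and 3 can therefore not be taken as independent of MEC2.

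The 32 higher DEGs of MEC2 were followed in the other lines, whose libraries had no part in choosing them, with that limit on PCL12 pairs 2 and 3. In HG3, 11 of the 32 were higher in all 3 pairs, where 9.71% of all genes were, and 2 were lower (8.99% of all genes). Unstimulated HG3 replicate 2 stood apart with 20.2% of its counts on mitochondrially encoded genes, against 6.42% to 9.28% in the other HG3 libraries. In HG3 pairs 1 and 3 alone, counted after the data were seen, 14 of the 32 were higher in both (18.5% of all genes), and in pair 1 alone 28 were (44.1% of all genes). In PCL12, 29 were higher in all 3 pairs (9.71% of all genes) and none was lower, and in its first pair, whose libraries set the low level of those 36 genes, 31 of the 32 were higher (50.1% of all genes). Their median Log2FC was 1.39 in MEC2, 0.30 in HG3 and 0.67 in PCL12. Since these genes were chosen by a Log2FC of at least 1 in MEC2, its median had to be large, and the medians do not compare the lines. Of the 7 lower DEGs, 1 was lower in all HG3 pairs and 4 in all PCL12 pairs (11.3% of all genes).

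NFKBIZ had Log2FC values of 2.19 ± 0.23 in MEC2, 0.74 ± 0.22 in HG3 and 1.71 ± 0.22 in PCL12 in this joint fit. Its fitted effect in MEC2 was above that in HG3 by 1.46 ± 0.31 (adjusted p = 0.434), while the difference from PCL12 was 0.49 ± 0.31 (adjusted p = 1). ZC3H12A showed the same order, with a difference of 1.13 ± 0.26 from HG3 (adjusted p = 0.582) and 0.31 ± 0.26 from PCL12 (adjusted p = 1). NFKB2 (1.14 ± 0.34, adjusted p = 0.947), BCL3 (1.04 ± 0.27, adjusted p = 0.776), CD40 (0.82 ± 0.25, adjusted p = 0.947), BATF (1.11 ± 0.34, adjusted p = 0.947) and PIM1 (1.10 ± 0.29, adjusted p = 0.776) also had larger fitted effects in MEC2 than in HG3, none of them past an adjusted p of 0.05. Without HG3 replicate 2 the differences were 1.66 for NFKBIZ, 1.06 for ZC3H12A, 0.89 for NFKB2, 0.87 for BCL3, 0.77 for CD40, 0.83 for BATF and 1.07 for PIM1. For the cytokine genes TNF and LTA the differences between MEC2 and HG3 were 0.04 ± 0.29 (adjusted p = 0.994) and -0.36 ± 0.36 (adjusted p = 0.947). CXCL8 was the gene with the smallest P among those with a higher effect in MEC2 than in PCL12 (1.26 ± 0.32, adjusted p = 1), followed by TGM5 (1.41 ± 0.40, adjusted p = 1) and IL2RA (1.11 ± 0.34, adjusted p = 1).

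**Figure D4:**
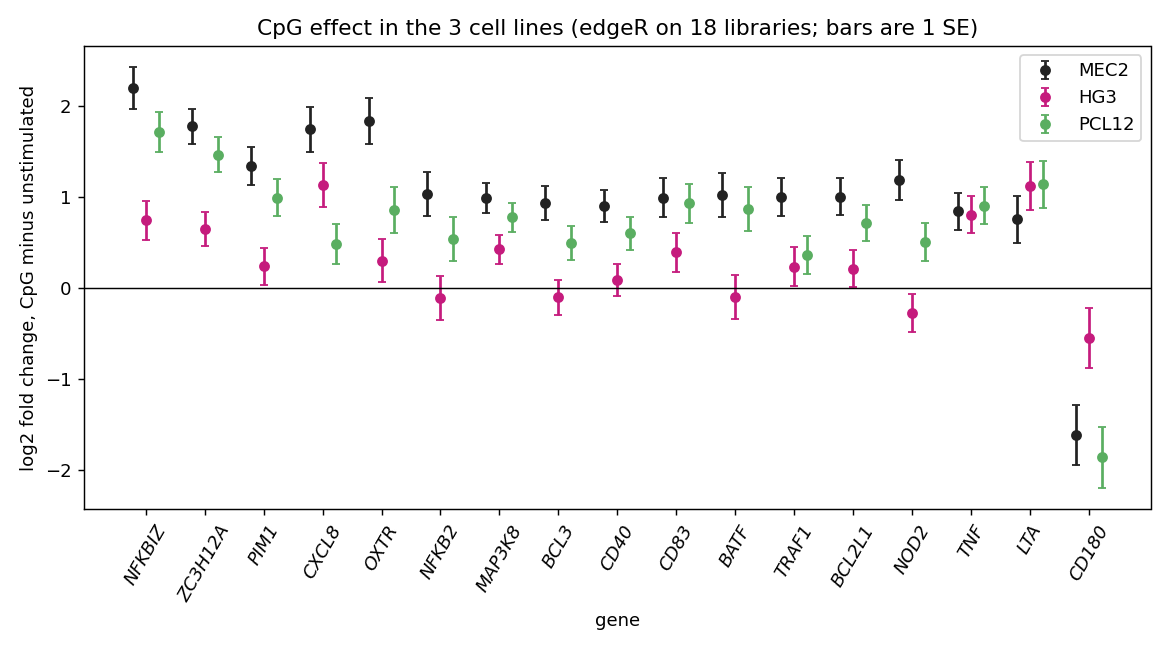
Log2FC of CpG-stimulated over unstimulated cells for 17 genes in MEC2, HG3 and PCL12 (vertical axis in log2 units), points being fitted values from the 18 libraries and bars 1 SE. For NFKBIZ the points are at 2.19, 0.74 and 1.71, and for TNF they are at 0.84, 0.80 and 0.90.

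The genes with the smallest P for MEC2 against HG3 were ones that HG3 hardly expressed. ZNF831 had 6, 7 and 11 reads in the HG3 CpG libraries and none in the unstimulated ones, and in MEC2 it was at 12.4, 12.9 and 12 CPM against 15.7, 18.9 and 13.1 CPM. TIGIT, an inhibitory receptor, was higher in MEC2 with 5.68, 8.63 and 6.41 CPM against 2.48, 1.95 and 3.66 CPM (1.37 ± 0.38), whereas HG3 had no reads with CpG and 0, 7 and 7 without. For NCR3, CCDC122 and HTR2B the reads in HG3 were likewise 0 in at least 1 library, and fitted differences of such genes depend on the offset added to the counts. NOD2 was well counted in both lines, with 347 to 1070 reads in the 6 HG3 libraries. It was higher in every MEC2 pair (log2 ratios 1.26, 1.61 and 0.61) and lower in every HG3 pair (-0.32, -0.20 and -0.24), and the difference between the lines was 1.46 ± 0.30 (adjusted p = 0.434).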

How the data were processed

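The values were the read counts per gene that the authors deposited without normalization. Per the labels, RNA libraries were made with a stranded QuantSeq kit, which reads the 3′ ends of transcripts, and the submitters' processing notes name FastQC, MultiQC, Trimmomatic, STAR, featureCounts and hg38, with versions not given in the sources used here. Total counts of the 6 MEC2 libraries were 20382943 to 43683251, and reads that are PCR copies count as separate, so that floors cover counting error only.

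Fits were run in edgeR 4.0.16, DESeq2 1.42.0 and limma 3.58.1 (R 4.3.3), and sequences were read in Python 3.11.15. After genes under a mean of 1 CPM in the 6 MEC2 libraries were left out, TMM scaling preceded a robust quasi-likelihood fit in edgeR of treatment and replicate number. Pair ratios used TMM-scaled CPM with a prior count of 2. Differences between lines were tested on all 18 libraries with 1 block per line and replicate number (6 residual degrees of freedom). The fits and pair ratios of MEC2 and the edgeR fit of the line differences were tested on simulated counts. The folds put in were recovered. In each paired MEC2 fit, however, unchanged genes made up a larger share of the calls than the adjusted p threshold of 0.05 allows, most in DESeq2. With edgeR and limma-voom, unchanged genes met the DEG definition in no smaller number than genes of the data did, and with DESeq2 in a smaller number.

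The replicate numbers were taken as pairs because the series describes 1 stimulated and 1 unstimulated sample in each replicate series. After removal of the group means, libraries with the same number correlated at 0.25, 0.0202 and 0.663 over 13449 genes, while CpG replicates 1 and 2 correlated most with the unstimulated samples of the other number (0.496 and 0.413). No 2 libraries of a group agreed within sampling noise.

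The gene lists and members were chosen with earlier results of these data known. Named genes are, in each of 38 lists, the member with the smallest P in each direction and up to 2 further ones with a nominal P under 0.05, the genes named by the study, and 3 genes per direction of each line difference. Genes that passed an adjusted p of 0.05 would have been added, and other members with a nominal P under 0.05 and the DEGs outside the lists were named after their values were seen. Members not named are given by their counts, and a few genes that the rule names are not reported here. Alternatives were other tools, scalings and filters, no block, and each pair left out.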

Additional observations from a re-analysis of the deposited data

Results flagged for a closer look

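No difference between lines passed an adjusted p of 0.05. The 123 tested genes with values given here were each held against HG3 and against PCL12. The share of all genes tested with opposite directions was not counted, so the genes below are a description only. Of the 123, 5 went one way in every MEC2 pair and the other way in every pair of another line. Between MEC2 and HG3 these were COL1A1, with a difference in Log2FC of 1.59 (adjusted p = 0.547 with edgeR), NOD2 with 1.46 (adjusted p = 0.434) and ZNF831 with -6.39 (adjusted p = 0.298), this one against HG3 libraries with 0 to 11 reads, so that its size is set by the offset. COL1A1, a collagen gene, was at 16.7, 36.9 and 19.9 CPM with CpG against 9.51, 10.1 and 11.4 CPM without in MEC2 and had log2 ratios of -0.23, -0.76 and -0.20 in the HG3 pairs. Between MEC2 and PCL12 the gene was TGM5, a transglutaminase gene, with a difference of 1.41 (adjusted p = 1 with edgeR), and in MEC2 it was at 1, 1.46 and 3.6 CPM against 0.862, 0.663 and 1.6 CPM. SLC2A3, a glucose transporter gene, had a difference between MEC2 and HG3 of -0.91 (adjusted p = 0.947 with edgeR), with log2 ratios of -0.65, -1.21 and -0.21 in the MEC2 and 0.33, 0.45 and 0.01 in the HG3 pairs.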

How the results depend on the processing

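At an adjusted p under 0.05, the 0 higher and 0 lower genes of the paired fit became 42 and 2 with DESeq2, 5 and 0 in the fit of all 18 libraries, 3 and 0 where a sum of 10 counts sufficed for a gene, and 81 and 4 with no filter beyond at least 1 count. Leaving out 1 pair gave 7 to 145 higher and 1 to 29 lower genes, and these fits have 1 residual degree of freedom. Without the replicate block, with limma-voom, RLE factors, library totals, filterByExpr or without mitochondrially encoded genes the counts stayed at 0, also without the block and CpG replicate 2. The cause of these differences was not tested.

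The 32 higher and 7 lower DEGs became 56 and 17 with DESeq2, 71 and 20 with no filter, 50 and 12 with all 18 libraries and 7 and 4 without the block and CpG replicate 2, while the filter on summed counts gave 43 and 12. With 1 pair left out they were 55 to 105 and 13 to 47. Without the replicate block 30 and 6 genes met the definition, 23 and 5 of them shared with the paired fit.

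Genes in the same direction in all pairs were 2650 higher and 2584 lower with the filter on summed counts, 2960 to 3783 and 2909 to 3904 over 2 pairs, and 426 and 357 where the groups, with no pairing, did not overlap. With library totals in place of TMM they were 1309 higher and 2155 lower. Genes that differed by at least 1.5-fold in all pairs were 421 and 277 with that filter and 186 to 327 and 196 to 209 over 2 pairs.

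For MEC2 minus HG3, 1 gene passed as lower without the replicate block and 1 as higher without HG3 replicate 3, while leaving out HG3 replicate 1 or 2 gave 0 (alternatives added after seeing the data), and for MEC2 minus PCL12 no alternative gave a call, also with PCL12 replicates 2 and 3 left out. Of the 123 tested genes for which values are given, those other than TRAC and PRF1 kept the sign of their Log2FC under the 14 alternatives. With 1 pair left out, TRAC ranged from -0.52 (without replicate 3) to 0.30 (without replicate 2) and PRF1 from -0.55 to 0.0481 in the same order, and TRAC was at 0.0244 without the block and CpG replicate 2. That of NFKBIZ ranged from 1.94 to 2.33, that of ZC3H12A from 1.59 to 1.94 and that of CD180 from -1.98 to -1.20. The depth limits genes below 1 CPM such as TLR9 and IL6.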

Other observations

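Lists of metabolism and growth had few members with a nominal P under 0.05, beside 2.12% higher and 0.981% lower of all genes. INSIG1, which holds back cholesterol synthesis, was at 418, 276 and 127 CPM with CpG against 222, 209.6 and 83 CPM without, higher in every pair (Log2FC 0.64 ± 0.18), and STARD4, a carrier of sterols, was higher as well (0.57 ± 0.20). They were the only 2 of 33 tested genes of cholesterol and fatty acid synthesis with a nominal P under 0.05. CCND2, cyclin D2, was at 99.2, 142 and 161 CPM against 56.4, 52 and 127 CPM (0.86 ± 0.23), while GINS2, a component of the replicative helicase, was lower in each pair (-0.64 ± 0.26, log2 ratios -0.26, -1.40 and -0.28), and the other 36 tested genes of G1/S and DNA replication had no nominal P under 0.05. FAS, the death receptor, was at 0.43 ± 0.15, TFEB, a regulator of lysosome genes, at 0.47 ± 0.16, and TAPBP, the chaperone tapasin of MHC class I, at 0.51 ± 0.18. SLC2A3, a glucose transporter gene, was lower without overlap of the groups (15.7, 13.3 and 18.9 CPM against 24.7, 30.8 and 21.9 CPM). None of the 17 heat shock chaperones or of the 24 genes of the unfolded protein and stress response had a nominal P under 0.05. Without pair 2, the Log2FC of GINS2 was -0.27, that of CCND2 0.57, that of STARD4 0.34 and that of SLC2A3 -0.44.

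Among genes too weakly counted for a test, ZNF385C had 20, 72 and 7 reads with CpG against 5, 0 and 0 without, and OSBPL1A had 15, 5 and 6 against 1, 1 and 0.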
